A study of Saccharomyces cerevisiae with 8 samples.

Results

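The 10 genes described here encode the transcription activator Met4 of budding yeast, its DNA-binding partners Met28, Met31, Met32 and Cbf1, the methionine synthesis enzymes Met2, Met6 and Met17, and the S-adenosylmethionine synthetases Sam1 and Sam2. They were taken by gene symbol from the platform's gene table, and each had 1 probe set. They are 10 of 5449 S. cerevisiae genes named on the array, of which 5392 were bright enough to be tested, these 10 among them.

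Expression was measured on Affymetrix Yeast 2.0 arrays, 1 array for each of 8 separate cultures. In 4 cultures the cells were of the CDC34tm strain (RRC85, MATα), which carries the CDC34tm allele marked by a nourseothricin resistance gene (NatR). In the other 4 they were of the isogenic wild type (WT, DBY2059, MATα), for which the design text gives the genotype leu2-3,112. The source name of every sample also lists a partial disruption of the 3' region of PST1 and the leu2-3,112 allele among the variables, without saying which strain carries them. How many independent isolates of the CDC34tm strain were made is not stated in the labels. All cultures came from stationary phase and grew at 30 °C for 3 to 4 doublings, in a defined medium of 2% dextrose, 0.25% glutamine and 25.2 mg/L leucine. Glutamine and leucine are the only amino acids that the recipe lists, and magnesium sulfate is its only listed sulfate.

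Yeast takes up sulfate, reduces it to sulfide and joins the sulfide to O-acetylhomoserine, which gives homocysteine and then methionine. Methionine is activated to S-adenosylmethionine, the methyl donor of the cell. Met4 switches on the genes of this pathway but binds DNA only through partners: Cbf1 together with Met28, or the zinc finger proteins Met31 and Met32. When methionine or S-adenosylmethionine is ample, the SCF ubiquitin ligase with the F-box protein Met30 attaches ubiquitin to Met4, with Cdc34 as the ubiquitin-conjugating enzyme, and Met4 activity falls. MET28, MET32 and MET30 are themselves known as Met4 targets. The comparison of the strains therefore asks how the mRNA of this regulator group and of its targets differs in cells with an altered CDC34 allele.

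Values are MAS5 signals on a linear scale, and a change is the log2 difference of signal + 16, CDC34tm minus WT. A gene was called when its limma adjusted p, over all 5437 probe sets tested, was below 0.05. The background signal, the 95th percentile of the S. pombe probe sets on an array, was 12.3 to 14.6, far below every value given here. The WT cultures differed among themselves. Over 12 heat shock genes the median log2 signal was 10.03 to 10.13 on the CDC34tm arrays, against 12.74 and 12.82 on WT replicates 1 and 4 and 10.72 and 10.66 on WT replicates 2 and 3. Of these 12 genes 9 were lower in CDC34tm, their summed signal ran from 34603 to 35369 in CDC34tm and from 41254 to 80206 in WT, and none was at 0. The members, the called pathway genes, YCT1, and the genes named below for Met4 ubiquitin control and likeness to MET4 were followed singly. For these, pairs of WT cultures, 1 and 4 or 2 and 3, were left out. Where that changed a call or moved a called value by over 1.5 times, the value is given with the gene. Other pathway genes were not followed in this way. The part of the heat shock state in these differences was not tested. In bulk RNA, a different share of cells at one stage and a different amount of mRNA per cell cannot be told apart.

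CDC34 itself read 1417, 1314, 1446 and 1413 in CDC34tm and 1487, 1302, 1505 and 1253 in WT, and the strains overlapped throughout (log2 difference 0.01, 95% interval -0.16 to 0.19). STE3, the a-factor receptor of MATα cells, read 5566 to 6140 in CDC34tm and 6074 to 8818 in WT. STE2, the receptor of MATa cells, read 251 to 268 in CDC34tm and 212 to 245 in WT.

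Of the 10 genes, 5 were higher in CDC34tm and 0 lower, with a median log2 difference of 0.30, against a median of 0.00 over all tested probe sets. Over all tested probe sets, 18.9% were called higher and 19.7% lower. At an unadjusted limma p below 0.05, 6 of the 10 were higher and 0 lower, against 1305 and 1332 of all 5437 tested probe sets. The genes called higher were those of 4 of the 5 regulators and of 1 of the 3 methionine synthesis enzymes. Neither S-adenosylmethionine synthetase gene was called. For 3 of the 10 genes, MET31, MET32 and MET2, every CDC34tm array lay above every WT array. Among all tested probe sets, 39.5% had no overlap between the strains in one direction or the other.

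**Figure D1:**
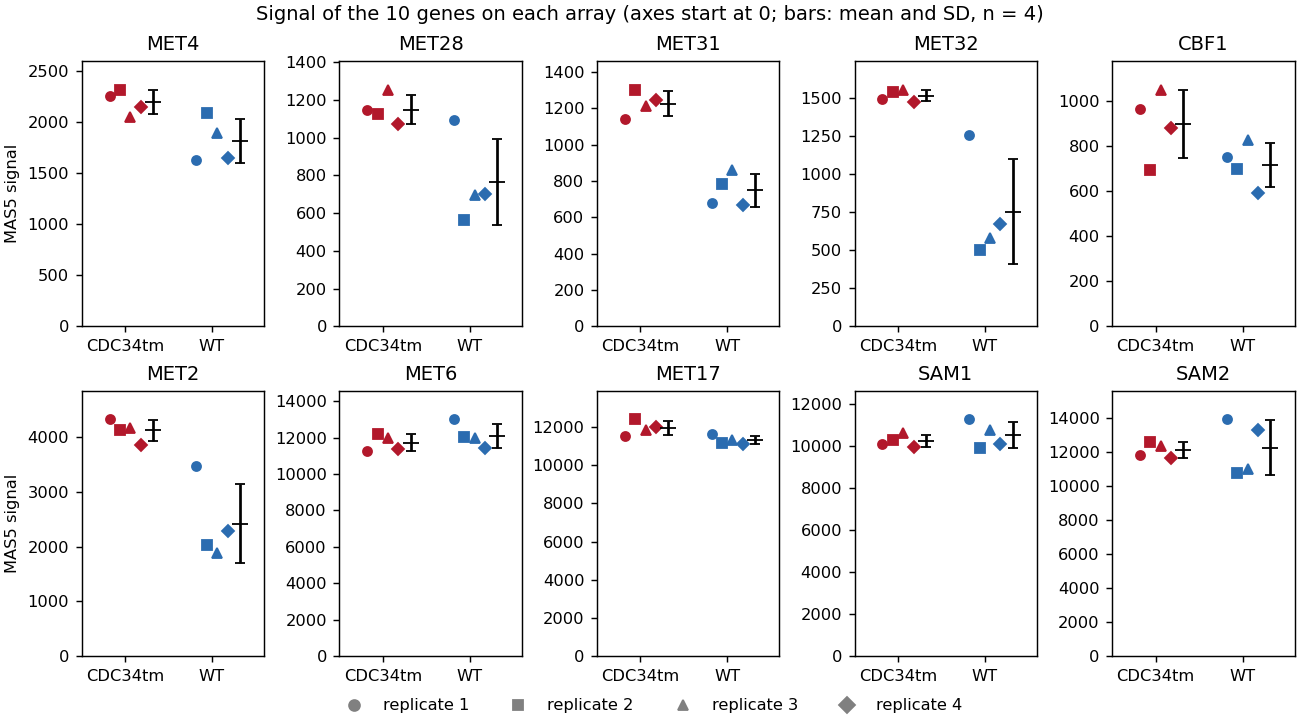
MAS5 signal of each of the 10 genes on each array, with CDC34tm cultures in red, WT cultures in blue, replicates by marker shape, and the mean and SD of 4 cultures in black. MET31, MET32 and MET2 were higher on every CDC34tm array than on any WT array. WT replicate 1 was the highest WT array for MET28, MET32 and MET2, and also for MET6, MET17, SAM1 and SAM2, which overlapped between the strains.

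Among the regulators, MET32 had the largest change. It encodes one of the paired zinc finger proteins that bring Met4 to DNA. It read 1489, 1536, 1552 and 1472 on the 4 CDC34tm arrays, against 1255, 499, 580 and 671 on the 4 WT arrays. The CDC34tm arrays lay close together and above all WT arrays, while WT replicate 1 stood well above the other WT arrays. The mean was 1513 ± 38.0 in CDC34tm, against 751 ± 343 in WT (SD, n = 4 each), a rise of 1.09 on the log2 scale (SE 0.23) or 2.12-fold (limma adjusted p = 0.00533). Without WT replicate 1 the rise was 1.36 (adjusted p = 3.37e-05). Leaving out WT replicates 1 and 4 together gave 1.46 (adjusted p = 2.89e-06), and leaving out WT replicates 2 and 3 gave 0.71 (adjusted p = 0.0101), so the call held and its size moved by over 1.5 times.

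MET31, the other zinc finger gene, changed with less spread. Its signals were 1141, 1304, 1211 and 1245 in CDC34tm, against 680, 785, 862 and 667 in WT. The lowest CDC34tm array lay above the highest WT array. MET31 averaged 1226 ± 68.1 in CDC34tm, against 748 ± 92.3 in WT (SD, n = 4 each), a rise of 0.71 (SE 0.09) or 1.63-fold (limma adjusted p = 4.36e-04). Its rise was between 0.57 and 0.85 in all 18 alternative settings, and it was called in each.

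MET28 encodes a leucine zipper protein that stabilises the complex of Cbf1 and Met4 on DNA. It read 1144, 1123, 1254 and 1072 in CDC34tm, against 1093, 566, 697 and 700 in WT. WT replicate 1 fell within the CDC34tm range, and the other WT arrays lay below it. The mean was 1148 ± 76.9 in CDC34tm, against 764 ± 228 in WT (SD, n = 4 each), and MET28 rose by 0.62 on the log2 scale (SE 0.17, 1.53-fold, limma adjusted p = 0.0163). The difference was 0.38 and not called when WT replicates 2 and 3 were left out (adjusted p = 0.0525), and 0.85 when WT replicates 1 and 4 were (adjusted p = 2.43e-04).

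MET4, the activator itself, showed the smallest change among the regulators. It read 2253, 2320, 2051 and 2152 in CDC34tm and 1630, 2089, 1897 and 1653 in WT, so that WT replicate 2 reached into the CDC34tm range. MET4 rose by 0.28 (SE 0.09, 1.21-fold, limma adjusted p = 0.0318). The call was lost when any of CDC34tm replicates 1, 2 or 4 or WT replicates 1 or 4 was left out (adjusted p from 0.0652 to 0.0816). WT replicates 1 and 4 had the lowest MET4 signals, and without both the difference was 0.14 (adjusted p = 0.166).

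CBF1, which encodes a helix-loop-helix protein that also binds centromeres, was not called. Its signals were 962, 694, 1049 and 879 in CDC34tm, against 750, 695, 823 and 589 in WT. CDC34tm replicate 2 was at the level of WT replicate 2, and the strains overlapped. The difference was 0.32 (95% interval 0.01 to 0.62, limma adjusted p = 0.0963). It was past the threshold without CDC34tm replicate 2 (0.43, adjusted p = 0.0257) and after centring each array on its median (0.36, adjusted p = 0.0485).

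**Figure D2:**
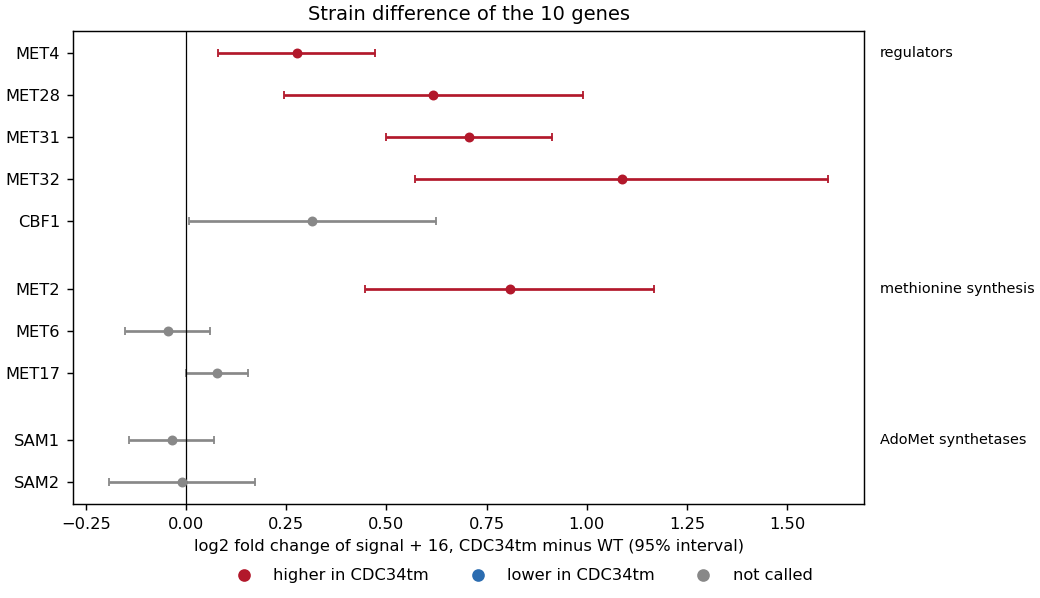
Log2 difference of each of the 10 genes, CDC34tm minus WT, with the 95% interval of the limma fit, red where the gene was called higher and grey where it was not called. The 4 called regulators ran from 0.28 for MET4 to 1.09 for MET32, MET2 stood at 0.81, and MET6, MET17, SAM1 and SAM2 lay between -0.05 and 0.08.

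Of the enzymes, MET2 alone was called. It encodes the homoserine O-acetyltransferase, which makes the O-acetylhomoserine that receives the sulfide. MET2 read 4328, 4140, 4171 and 3860 in CDC34tm, against 3473, 2033, 1879 and 2289 in WT. All CDC34tm arrays lay above WT replicate 1, which in turn lay well above the other WT arrays. The mean was 4125 ± 195 in CDC34tm, against 2418 ± 723 in WT (SD, n = 4 each), a rise of 0.81 (SE 0.16, 1.75-fold, limma adjusted p = 0.00392). The rise was 1.07 when WT replicates 1 and 4 were left out (adjusted p = 5.58e-06) and 0.55 when WT replicates 2 and 3 were (adjusted p = 0.00696).

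MET17, the O-acetylhomoserine sulfhydrylase that joins sulfide to the product of Met2, read 11554, 12413, 11831 and 11992 in CDC34tm and 11634, 11156, 11345 and 11137 in WT. CDC34tm replicate 1 was below WT replicate 1, and the other CDC34tm arrays were above all WT arrays. The difference of 0.08 was not called (95% interval -0.001 to 0.156, limma adjusted p = 0.106).

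MET6, the methionine synthase that methylates homocysteine, read 11280, 12217, 11990 and 11381 in CDC34tm and 13013, 12013, 11997 and 11406 in WT. The strains overlapped, with a difference of -0.05 (95% interval -0.15 to 0.06, limma adjusted p = 0.468).

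SAM1 and SAM2 encode closely related enzymes that make S-adenosylmethionine from methionine and ATP. SAM1 read 10108, 10309, 10630 and 9955 in CDC34tm and 11287, 9936, 10766 and 10105 in WT, with a difference of -0.04 (95% interval -0.14 to 0.07, limma adjusted p = 0.575). SAM2 read 11843, 12627, 12385 and 11638 in CDC34tm and 13953, 10788, 11047 and 13340 in WT. All CDC34tm values of SAM2 lay between WT replicates 2 and 3 below and WT replicates 1 and 4 above, and the difference over all arrays was -0.01 (95% interval -0.19 to 0.17, limma adjusted p = 0.932). Its sign followed the WT cultures, at 0.15 when WT replicates 1 and 4 were left out (adjusted p = 0.035) and -0.17 when WT replicates 2 and 3 were (adjusted p = 0.0222). The labels and tables used here do not show whether the SAM1 and SAM2 probe sets read each other's mRNA.

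The 4 genes without a clear difference were also the brightest of the group, with mean signals over 8000. In that range differences were small across the whole array. Of 354 tested probe sets with a mean signal over 8000, 15.3% were called in either direction and 1, or 0.282%, was called with a change of at least 1.5-fold. Of the 2452 with a mean of 500 to 2000, where MET28, MET31, MET32 and CBF1 lay, 41.7% were called and 10.4% were called with at least that change. The median size of the log2 difference was 0.05 in the bright class and 0.21 in the other. Whether the scanner or the probes limit the response of the brightest probe sets was not tested.

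The paralogs were compared within each array, as the log2 ratio of the signals of a pair. Its level depends on the probes, so only its difference between the strains is read. The MET31 to MET32 ratio was -0.38, -0.23, -0.35 and -0.24 in CDC34tm, against -0.87, 0.64, 0.56 and -0.01 in WT. The CDC34tm values were narrow and lay inside the WT range. Its mean was -0.30 ± 0.08 in CDC34tm, against 0.08 ± 0.70 in WT (SD, n = 4 each). The difference of -0.38 did not pass a two-sided exact permutation test (p = 0.314, adjusted p = 0.629 over 2 pairs). Unequal changes of the paralogs were not shown. The size of the difference depended on which WT arrays were used. It was -0.20 without WT replicate 2, -0.22 without WT replicate 3 and 0.14 without both. Without WT replicate 1 it was -0.70 (exact permutation p = 0.0286 before adjustment, the smallest that 4 against 3 allows). Adjusted together with the SAM1 to SAM2 ratio of that setting (exact permutation p = 0.4857), it would stay above 0.05. The SAM1 to SAM2 ratio averaged -0.24 ± 0.03 in CDC34tm, against -0.22 ± 0.17 in WT (SD, n = 4 each), a difference of -0.03 (exact permutation p = 0.771, adjusted p = 0.771). With 4 arrays against 4 the smallest p of this test is 0.0286. Adjusted over 2 pairs, even that p is above 0.05 unless the other pair is also below 0.05. The test could therefore not show an unequal change of 1 pair alone.

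**Figure D3:**
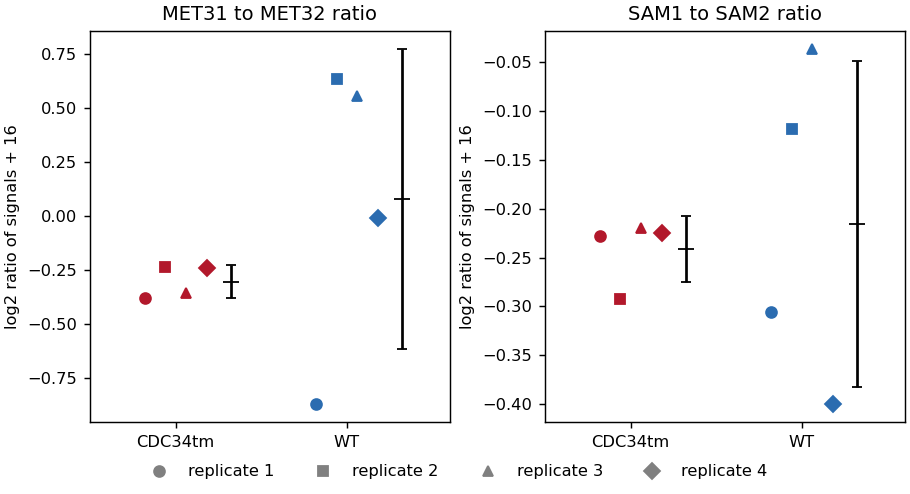
Log2 ratio of the signals + 16 of MET31 to MET32 and of SAM1 to SAM2 on each array, CDC34tm in red and WT in blue, with the mean and SD of 4 cultures in black. In both panels the CDC34tm cultures lie close together, and the WT cultures spread on either side of them.

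Within WT, the genes fell into different patterns over the 4 cultures. MET28, MET32 and MET2 were highest on WT replicate 1, at 0.55, 0.82 and 0.56 above their WT means on the log2 scale. On WT replicate 4, which shared the high heat shock signals of replicate 1, they were at -0.08, -0.07 and -0.04. MET4 and MET31 ran the other way, at -0.15 and -0.13 from their WT means on replicate 1 and -0.13 and -0.15 on replicate 4. They were at 0.207 and 0.075 on replicate 2, and 0.07 and 0.21 on replicate 3. SAM2 was above its WT mean on replicates 1 and 4, by 0.19 and 0.13, and highest on replicate 1. MET6, MET17 and SAM1 were also highest on replicate 1, by 0.11, 0.04 and 0.10 above their WT means. Within CDC34tm, MET4, MET28, MET31, MET32 and MET2 all stayed within 0.13 of their mean, while CBF1 ranged from -0.35 to 0.24.

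**Figure D4:**
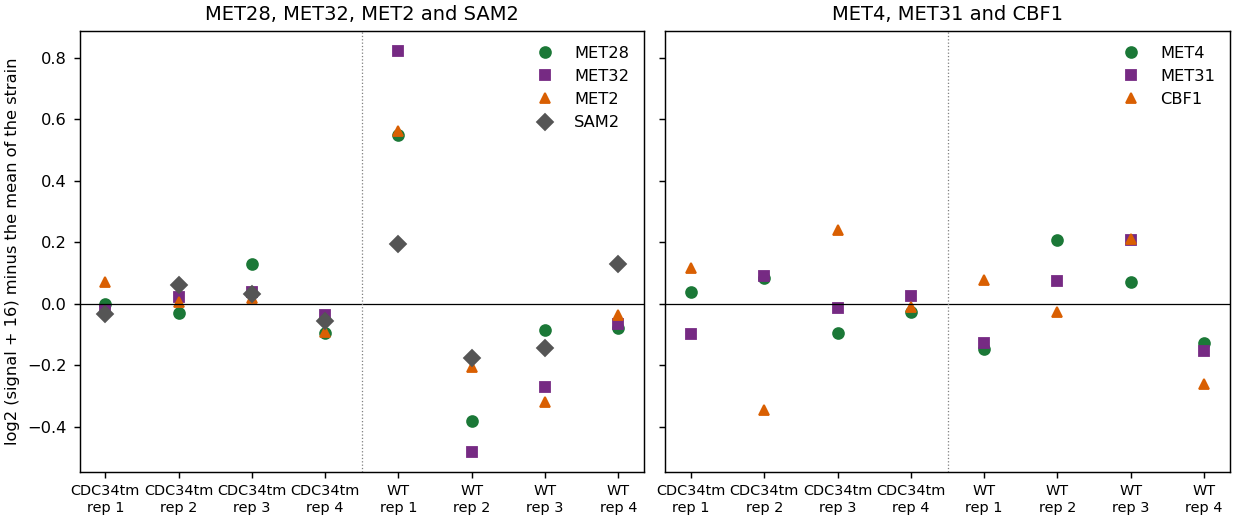
Log2 signal of 7 of the genes on each array minus the mean of its strain, with the strains separated by the dotted line. MET28, MET32 and MET2 stand highest on WT replicate 1, at 0.55 to 0.82, as does SAM2 at 0.19. MET4 and MET31 are below 0 on WT replicates 1 and 4, and the CDC34tm cultures show little spread except for CBF1.

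The genes most like MET4 over the 8 arrays, after each strain's mean was subtracted, were UTP15, EST2, ESA1, SOV1 and MTR2, with Pearson correlations of 0.995, 0.994, 0.992, 0.989 and 0.988. They are the highest of 5391 genes, so their size is a description and carries no test. Of these, ESA1, a histone acetyltransferase gene, was higher in CDC34tm (0.21, limma adjusted p = 0.0429, a call lost in 8 of 18 alternative settings), and the others were not called. UTP15, which acts in ribosomal RNA processing, had a difference of 0.05, and EST2, the telomerase catalytic subunit, one of 0.15. Without WT replicates 2 and 3, UTP15 (0.185, adjusted p = 0.0307), EST2 (0.30, adjusted p = 0.0324) and MTR2 (0.22, adjusted p = 0.00943) were called higher too. MTR2 was also called without WT replicate 2 alone and after centring (adjusted p = 0.0473 and 0.033), and ESA1 stood at 0.12 without WT replicates 1 and 4 (adjusted p = 0.213). Among the other 9 genes of the group, MET31 came closest to MET4 (0.686, rank 1044), and the other 8 had negative correlations with it, from -0.087 for CBF1 to -0.747 for MET28 and -0.82 for SAM2.

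The rest of the sulfur pathway was counted together with 7 genes of Met4 ubiquitin control, as 50 genes in 7 lists. Of these 12 were higher and 6 lower in CDC34tm, with a median of 0.08, against the 18.9% higher and 19.7% lower over all tested probe sets. When WT replicates 1 and 4 were left out, 21 were higher and 6 lower, against 17.9% and 20.9% of all tested probe sets. When WT replicates 2 and 3 were left out, 9 were higher and 10 lower, both shares below those of all tested probe sets (25.5% and 22.5%). Genes called only in these settings are named below only where they were followed singly.

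Of 7 genes listed for the ubiquitin control of Met4, CDC34 among them, 0 were higher and 1 was lower (0 and 2 at an unadjusted limma p below 0.05). Over all tested probe sets 18.9% were higher and 19.7% lower (1305 and 1332 of 5437 at the unadjusted threshold). MET30, the F-box gene, read 1953, 1774, 1991 and 1870 in CDC34tm, against 1994, 1550, 1669 and 1568 in WT. It was not called (0.17, limma adjusted p = 0.154), but WT replicate 1 was its highest WT array, and it was called without that array (0.25, adjusted p = 0.0214) and without WT replicates 1 and 4 (0.23, adjusted p = 0.0282). HRT1, the RING subunit of SCF, fell by 0.32 (adjusted p = 0.003). SKP1 (0.08) and CDC53 (-0.16), the adaptor and the cullin, were not called, and CDC48 (-0.13) and its cofactor gene SHP1 (-0.36, adjusted p = 0.0623) were not either. SHP1 was highest on WT replicates 1 and 4, at 4844 and 4700, against 3049 and 3612 on WT replicates 2 and 3 and 2924 to 3399 in CDC34tm. It was called lower without WT replicate 2 (-0.48, adjusted p = 0.00723) and without WT replicates 2 and 3 (-0.62, adjusted p = 7.7e-05). Leaving out WT replicates 2 and 3 also put CDC53 (-0.30, adjusted p = 0.00331) and CDC48 (-0.23, adjusted p = 0.0156) past the threshold, while without WT replicates 1 and 4 all of these lay between -0.10 and -0.02 and were not called.

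Of 10 genes of sulfate uptake and reduction, 2 were higher and 1 was lower, with a median of 0.085. Over all tested probe sets 18.9% were higher and 19.7% lower. MET22, the bisphosphate nucleotidase, rose by 0.39 (limma adjusted p = 0.00672) and MET14, the adenylylsulfate kinase, by 0.19 (adjusted p = 0.0187), while MET8, which makes the sirohaem of sulfite reductase, fell by 0.51 (adjusted p = 0.0447). The call of MET8 was lost in 11 of 18 alternative settings, and its size moved with the WT cultures. Leaving out WT replicate 1 gave -0.31 (adjusted p = 0.0459), leaving out replicate 4 as well gave -0.23 (adjusted p = 0.0979), and leaving out WT replicates 2 and 3 gave -0.78 (adjusted p = 0.00116). MET14 was not called without WT replicates 2 and 3 (0.15, adjusted p = 0.0811). The transporter genes SUL1 and SUL2 and the first enzyme gene MET3 were not called (0.15, 0.09 and 0.07). On WT replicates 2 and 3 they read below every CDC34tm array, and on replicates 1 and 4 within or above the CDC34tm range. SUL1 read 7856 to 9045 in CDC34tm and 8169, 6789, 6810 and 7864 in WT. SUL2 read 3178 to 3508 in CDC34tm and 4488, 2526, 2738 and 3273 in WT. MET3 read 8819 to 9655 in CDC34tm and 11038, 8222, 7656 and 9122 in WT. Of 4 genes from aspartate to homoserine, HOM6 rose by 0.12 (adjusted p = 0.0412, lost in 10 of 18 alternative settings), and of 6 genes of cysteine and glutathione synthesis GSH2, the glutathione synthetase, rose by 0.20 (adjusted p = 0.0127). HOM6 was not called without WT replicates 1 and 4 (0.13, adjusted p = 0.0797) or without WT replicates 2 and 3 (0.11, adjusted p = 0.13).

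Of 7 genes of folate one-carbon supply, 1 was higher and 3 were lower, with a median of -0.07, against 18.9% and 19.7% of all tested probe sets. MET13 and MET12 encode methylenetetrahydrofolate reductases, whose product is the methyl donor for Met6. MET13 read 1715, 1476, 1844 and 1705 in CDC34tm, against 4275, 3290, 3905 and 4603 in WT. The strains lay far apart, with means of 1685 ± 153 in CDC34tm, against 4018 ± 563 in WT (SD, n = 4 each). MET13 thus fell by 1.24 on the log2 scale (SE 0.11, 2.36-fold, limma adjusted p = 4.36e-05), and its difference was between -1.39 and -1.09 in all 18 alternative settings. MET12 read 1906 to 2176 in CDC34tm and 2780 to 3013 in WT and fell by 0.51 (adjusted p = 2.43e-04). ADE3, a one-carbon interconversion enzyme, fell by 0.17 (adjusted p = 0.00866), and MTD1, an NAD-dependent methylenetetrahydrofolate dehydrogenase, rose by 0.52 (adjusted p = 0.0093). The call of ADE3 was lost after centring each array on its median. MTD1 was called at 0.28 when WT replicates 1 and 4 were left out and at 0.77 when WT replicates 2 and 3 were. The other 3 genes of the list, among them SHM1 and SHM2, were not called.

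Genes of methionine salvage, which rebuild methionine from methylthioadenosine and from S-methylmethionine, were higher in part. Of 10 genes of the methyl cycle and salvage, 5 rose and 1 fell, with a median of 0.16, against 18.9% and 19.7% of all tested probe sets. ADI1, an enzyme of the salvage pathway, read 4556, 4861, 4498 and 4470 in CDC34tm, against 3244, 1766, 1693 and 2901 in WT. The lowest CDC34tm array was above the highest WT array, and ADI1 rose by 0.99 (SE 0.19, 1.99-fold, limma adjusted p = 0.00347). WT replicates 1 and 4 lay nearer to CDC34tm, and the rise was 0.58 when only these 2 stood for WT and 1.40 when they were left out, called in both cases. MHT1, the S-methylmethionine-homocysteine methyltransferase, rose by 0.92 (adjusted p = 0.00929), and MRI1, a salvage isomerase, by 0.29 (adjusted p = 0.0123). MHT1 was called at 0.52 when WT replicates 2 and 3 were left out and at 1.31 when WT replicates 1 and 4 were. MRI1 was not called without WT replicates 1 and 4 (0.19, adjusted p = 0.0555). MDE1 and MEU1, of the same pathway and named after their values were seen, rose by 0.22 and 0.20 (adjusted p = 0.0171 and 0.0458, the call of MEU1 lost in 9 of 18 alternative settings). The call of MDE1 was lost without CDC34tm replicate 4. MEU1 stood at 0.08 when WT replicates 1 and 4 were left out and at 0.33 when WT replicates 2 and 3 were. SPE2, the S-adenosylmethionine decarboxylase, read 1547 to 1732 in CDC34tm and 2166 to 2207 in WT and fell by 0.40 (adjusted p = 6.89e-04).

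Of 6 transporter genes for methionine, S-adenosylmethionine and cysteine, 2 rose and 0 fell, with a median of 0.38. At an unadjusted limma p below 0.05 the counts were the same. Over all tested probe sets 18.9% were higher and 19.7% lower (1305 and 1332 of 5437 at the unadjusted threshold). MUP1, the high-affinity methionine permease, rose by 0.38 (limma adjusted p = 0.00817) and MUP3, a low-affinity one, by 0.75 (adjusted p = 0.0376, lost in 8 of 18 alternative settings). MUP1 was called at 0.23 when WT replicates 2 and 3 were left out and at 0.53 when WT replicates 1 and 4 were. MUP3 was at 0.28 and not called without WT replicates 2 and 3 (adjusted p = 0.163), and at 1.21 without WT replicates 1 and 4 (adjusted p = 5.72e-05). YCT1, a cysteine transporter gene named after its values were seen, read 728, 669, 771 and 593 in CDC34tm and 761, 172, 252 and 705 in WT. WT replicates 1 and 4 were at the level of CDC34tm and the others far below, and YCT1 was not called (0.78, adjusted p = 0.157). It was 1.65 and called without WT replicates 1 and 4 (adjusted p = 6e-05), and -0.09 without WT replicates 2 and 3 (adjusted p = 0.509).

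**Figure D5:**
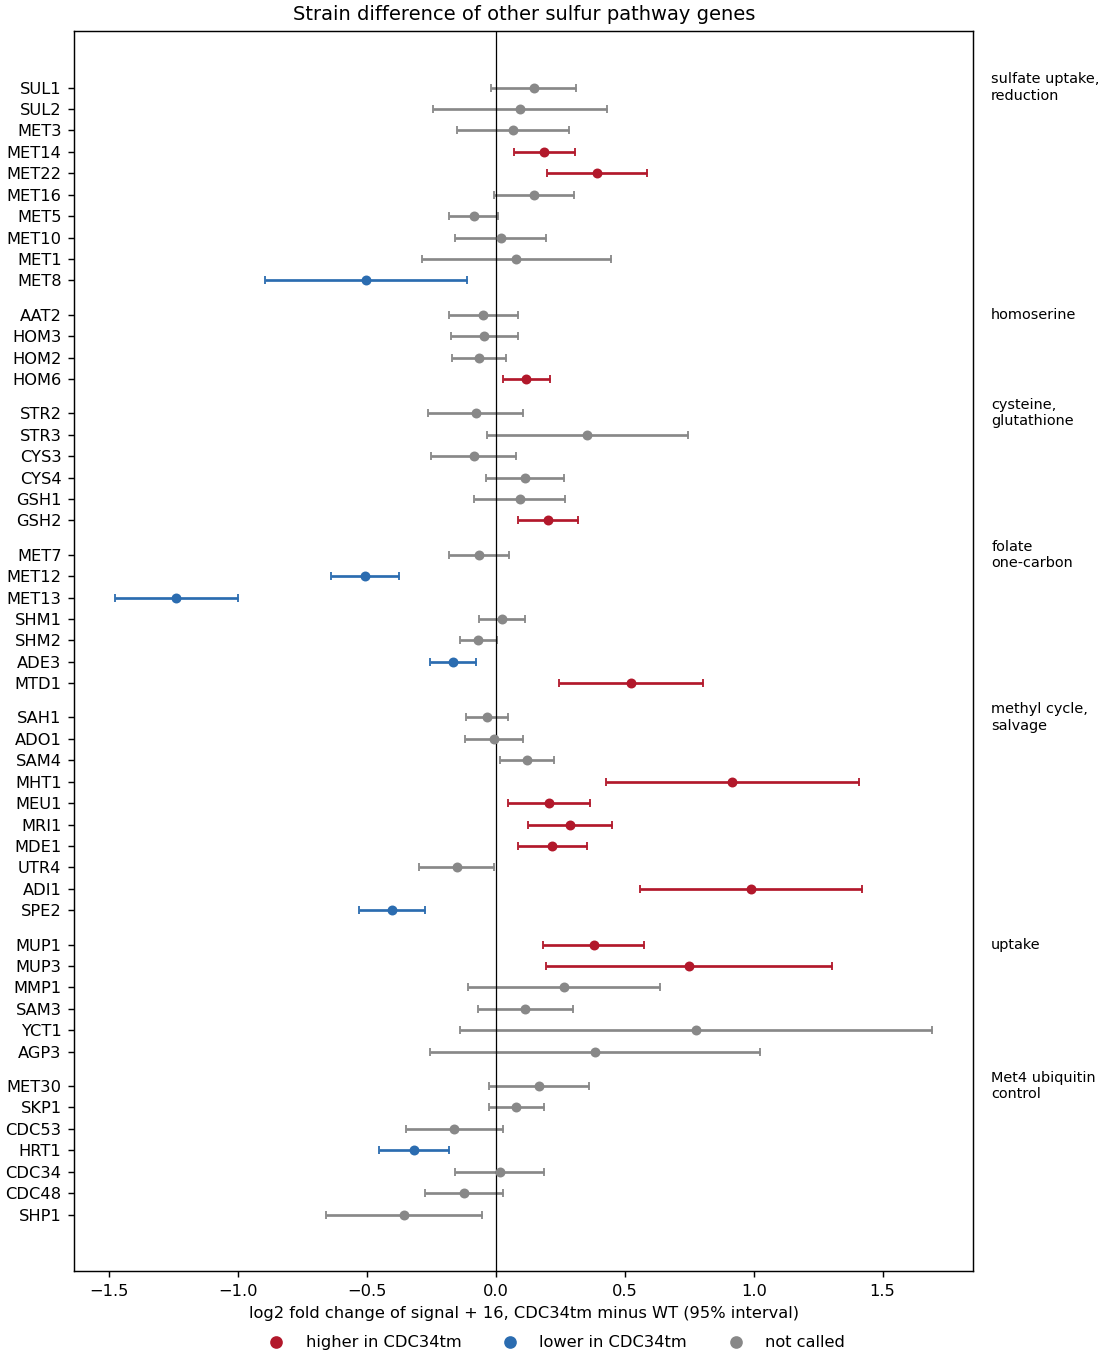
Log2 difference of 50 other genes of the sulfur pathway and Met4 ubiquitin control, CDC34tm minus WT, with the 95% interval of the limma fit. They are grouped by list, red where called higher, blue where called lower and grey where not called. MET13 stands out at -1.24, ADI1 and MHT1 are highest among the called genes at 0.99 and 0.92, and 32 of the 50 were not called.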

How the data were processed

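The values the authors deposited are array intensities, MAS5 signals on a linear scale per the submitters' processing notes, with no version or scaling target given in the sources used here. Every array, to judge by its values, had been scaled to the same level (2% trimmed mean of 1000), which hides any difference in total mRNA.

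Genes were named through the platform table and RefSeq gene IDs. Tested were the 5437 S. cerevisiae probe sets above the 95th percentile of the S. pombe probe sets on at least 4 of 8 arrays. The fit used limma 3.58.1 in R 4.3.3 on log2 of signal + 16 (eBayes with a trend, two-sided, Benjamini-Hochberg over the 5437). It was also run on simulated data with independent noise of equal spread in both strains, which does not copy the uneven WT cultures. The offset understates changes of dim genes. Cultures of a strain were separate per the labels, so p-values measure the spread between cultures, and 4 arrays per strain limit the precision.

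The members, lists, named genes and the WT cultures left out together were chosen with earlier results of these data known. Named were the members, up to 4 called genes of smallest adjusted p per pathway list, the genes of Met4 ubiquitin control and the 5 genes most like MET4. Alternatives covered pseudocounts of 1 and 64, scaling, filters, the trend, the replicate block and arrays left out. Same-numbered arrays of the strains did not all deviate together (correlations 0.04, 0.23, -0.08 and 0.06), so the numbers were not taken to pair them. No promoter or protein sequences were used here.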

Additional observations from a re-analysis of the deposited data

Results flagged for a closer look

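In 3 of 84 groups of 4 cultures examined, 1 culture stood apart from the other 3 by more than Dixon's 95% limit for the gap over the range, where chance gives about 5% of groups. MUP1 read 7444 on CDC34tm replicate 3, against 7073 to 7094 on the other CDC34tm arrays (gap over range 0.942). MUP3 read 1543 on CDC34tm replicate 2, against 1923 to 1997 on the others (0.853). The log2 SAM1 to SAM2 ratio was -0.29 on CDC34tm replicate 2, against -0.23 to -0.22 on the others (0.888).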

How the results depend on the processing

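Of 10 genes, 5 were called higher with all arrays, and 4 to 6 under each of 18 alternatives. MET31, MET32 and MET2 were called in all 18, MET28 in 17 and MET4 in 12. Leaving out 1 array gave 4 to 5 called genes, and 1589 to 2115 called probe sets (756 to 1055 higher, 833 to 1064 lower) in place of 2100. Without WT replicates 2 and 3 together, 1 of the 10 genes was called lower, SAM2 (-0.17), and without WT replicates 1 and 4 together SAM2 was called higher (0.15). An alternative chosen after seeing the data counted the 50 other genes of the sulfur pathway and Met4 ubiquitin control. Without WT replicates 1 and 4, 21 of them were higher, against 17.9% of all tested probe sets. Without WT replicates 2 and 3, 10 of 50 were lower, a share below the 22.5% of all tested probe sets. Why the counts moved was not tested. The difference of the MET31 to MET32 ratio was -0.70 without WT replicate 1, and -0.70 to -0.20 over single arrays left out. Leaving out WT replicates 1 and 4 gave -0.90, and leaving out WT replicates 2 and 3 gave 0.14. The SAM1 to SAM2 difference ran from -0.09 to 0.03 over single arrays left out, and the same pairs left out gave -0.16 and 0.11. With 2 WT arrays left, the exact test of a ratio could not reach the threshold. Centring on the median put 59.9% of all calls on the higher side, against 49% without it, and added CBF1. The replicate block gave 5 called genes of 10 and changed no member's call, with 1993 probe sets called. Every gene had 1 probe set, so no other probe set could be tried.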
